A study of Mus musculus with 24 samples.

Results

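The tumour suppressor p53, which is encoded by *Trp53* in the mouse, and 9 genes that it is known to switch on were examined in neural stem and progenitor cells (NSPCs) with 2, 1 or 0 functional copies of *Kat6a*. The members were chosen by gene symbol, as *Trp53*, *Mdm2*, *Ccng1*, *Zmat3*, *Trp53inp1*, *Bax*, *Bbc3*, *Aen*, *Eda2r* and *Phlda3*, which are 10 of the 26411 genes in the count tables. They lie, on the mm39 build, at chr11:69469669-69482701 (*Trp53*), chr10:117524780-117546730 (*Mdm2*), chr11:40639377-40646148 (*Ccng1*), chr3:32388941-32420163 (*Zmat3*), chr4:11156412-11175230 (*Trp53inp1*), chr7:45111015-45116325 (*Bax*), chr7:16042318-16052130 (*Bbc3*), chr7:78545602-78560957 (*Aen*), chrX:96320270-96420847 (*Eda2r*) and chr1:135693809-135697686 (*Phlda3*). All 10 were found, and all 10 passed the filter on low counts in every fit.

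The NSPCs had been isolated from the dorsal telencephalon of C57BL/6 mouse embryos at E12.5 (the embryonic day) and put into neurosphere culture. Embryos were *Kat6a*+/+, *Kat6a*+/– or *Kat6a*–/– offspring of crosses of heterozygous mice, and the null allele lacks exons such that a stop codon falls in the part that codes for the acetyltransferase domain of KAT6A, an enzyme that acetylates histones. Cells were harvested for RNA after 3 days in proliferation medium with FGF2 and EGF (proliferating NSPCs) or after 3 days on poly-ornithine and laminin with serum in place of the growth factors (differentiating NSPCs), and 4 libraries of polyadenylated RNA were made per genotype and condition. In proliferation culture, the study reports, *Kat6a*+/– colonies were smaller and tended to attach. *Kat6a*–/– NSPCs gave few floating colonies and attached to the plastic. The null allele is germline, so that effects that arose in the culture and in earlier development cannot be told apart. RNA from proliferating and differentiating cells was purified with different kits, so that effects of the kit and of the condition cannot be told apart.

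The p53 protein is a transcription factor that is held at a low level because MDM2, itself a p53 target, marks it for degradation. DNA damage, nucleolar stress or activity of ARF, a product of the *Cdkn2a* locus, frees p53 from MDM2, and p53 then activates genes for cell cycle arrest, DNA repair and apoptosis. Because p53 is regulated mainly as a protein, the level of *Trp53* mRNA need not follow the activity of p53. In the developing brain, excess p53 activity is known to remove neural progenitors by cell death or to stop them from dividing.

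The DNA element that p53 binds is a pair of decamers, each built around a core of C, 2 bases that are each A or T in the consensus, and G. The p53 consensus response element, with no spacer between the decamers and at most 2 mismatches outside the C and G of each core, was searched within 2000 bases on either side of the start of each gene's canonical transcript. It was present for 4 of the 10 members and for 3.92% of 20777 genes searched in the same way, and without any mismatch for 0.0674% of the genes, among them *Zmat3*. The matches are shown because this element is how p53 recognises its target genes. They are read 5′ to 3′ on the strand of the gene, on the mm39 build, and capitals mark the core of each decamer.
*Ccng1*, chr11:40646289-40646308, 160 bases before the start, 1 mismatch: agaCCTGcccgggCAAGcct
*Ccng1*, chr11:40645763-40645782, 366 bases after the start in an intron, 1 mismatch: acgCAAGcccgggCTAGtct
*Zmat3*, chr3:32418480-32418499, 1418 bases after the start in an intron, no mismatch: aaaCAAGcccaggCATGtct
*Bax*, chr7:45115998-45116017, 318 bases after the start in an intron, 2 mismatches: gggCAGGcccgggCTTGtcg
*Eda2r*, chrX:96420140-96420159, 690 bases after the start in an intron, 2 mismatches: gggCAAGtccgggCCTGtgt
No element was found in this window for *Trp53*, *Mdm2*, *Trp53inp1*, *Bbc3*, *Aen* or *Phlda3*. A match describes letters only, and whether p53 bound any of these elements was not measured.

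Library totals ranged from 7826660 to 40838203 counts. *Kat6a* itself, whose exons outside the deletion are still counted, was at 334 to 389 CPM in proliferating *Kat6a*–/– against 373 to 409 CPM in *Kat6a*+/+ NSPCs and at 160 to 253 CPM against 239 to 292 CPM in differentiating NSPCs, so that gene-level counts do not check the genotype labels. Y-linked reads marked 3 of the 4 *Kat6a*+/+ libraries but only 1 of 4 among *Kat6a*+/– and 1 of 4 among *Kat6a*–/– libraries in either condition, so that sex and genotype were partly confounded. Of 6 embryo labels that occurred in both conditions, 1 had Y-linked reads in a single condition. It belongs to *Kat6a*+/+ replicate 1 of both conditions, and without the library of the condition 5 members in place of 7 were called in proliferating and 8 in place of 9 in differentiating *Kat6a*–/– NSPCs. Levels are given in CPM, counts relative to the TMM-scaled total of each library. A gene was called when its false discovery rate (FDR), from limma fits across all 12276 genes tested in proliferating and 13339 in differentiating NSPCs, was under 0.05.

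In proliferating *Kat6a*+/+ NSPCs, all members were expressed. Per kilobase of transcript, *Bax* was highest at 194 ± 6.29 RPKM (mean ± SD, n = 4) and *Bbc3* lowest at 8.56 ± 1.84 RPKM, while *Trp53* stood at 77.5 ± 3.46 RPKM and *Mdm2* at 34.9 ± 1.70 RPKM. The remaining members ranged from 13.8 RPKM for *Eda2r* to 65.1 RPKM for *Ccng1*.

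To ask whether dividing cells without KAT6A differ in p53 target transcripts, proliferating *Kat6a*–/– NSPCs were set against *Kat6a*+/+. Of the 10 members, 7 were called, 6 higher and 1 lower, against 30% of all genes tested, 16.2% higher and 13.8% lower. The median log2 fold-change was 0.33 over the members and −0.0045 over all genes. The largest rises were in *Ccng1*, *Trp53inp1* and *Eda2r*, while *Trp53* fell.

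*Trp53* was at 154, 142, 140 and 143 CPM in *Kat6a*+/+ replicates 1 to 4, at 147, 133, 124 and 102 CPM in *Kat6a*+/–, and at 115, 120, 107 and 77.9 CPM in *Kat6a*–/– NSPCs. All 4 *Kat6a*–/– libraries lay below all 4 *Kat6a*+/+ libraries. The fitted log2 fold-change of *Trp53* was −0.41 (SE 0.11, limma FDR 0.0122). It remained between −0.46 and −0.31 when any single library was left out, with FDR values up to 0.0359, although replicate 4 of *Kat6a*–/– was the lowest library by a wide margin.

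*Mdm2*, the ubiquitin ligase that restrains p53, was not called in proliferating cells. It was at 111, 113, 101 and 108 CPM in *Kat6a*+/+ and at 109, 119, 113 and 139 CPM in *Kat6a*–/– NSPCs, and these ranges overlapped. Its log2 fold-change of 0.16 (95% interval −0.04 to 0.37, limma FDR 0.206) did not pass the threshold.

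Among targets that act on the cell cycle and on p53 itself, *Ccng1* encodes cyclin G1, which brings a phosphatase to MDM2. *Ccng1* was at 218, 198, 244 and 230 CPM in *Kat6a*+/+ and at 422, 462, 562 and 561 CPM in *Kat6a*–/– NSPCs, without overlap. Its log2 fold-change was 1.15 (SE 0.15, limma FDR 0.000164). *Trp53inp1* encodes a stress protein that promotes phosphorylation of p53. *Trp53inp1* was at 178, 151, 223 and 157 CPM in *Kat6a*+/+ and at 278, 321, 353 and 405 CPM in *Kat6a*–/– NSPCs, again without overlap, and its log2 fold-change was 0.92 (SE 0.15, limma FDR 0.00109). *Zmat3*, which encodes an RNA-binding zinc finger protein, had a log2 fold-change of 0.26 (95% interval 0.02 to 0.50, limma FDR 0.0888), and its ranges overlapped at 200 to 230 CPM in *Kat6a*+/+ and 213 to 296 CPM in *Kat6a*–/– NSPCs.

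Targets with a role in cell death and survival signalling were mostly higher. *Eda2r*, a receptor of the tumour necrosis factor receptor family, was at 109, 97.5, 104 and 92.8 CPM in *Kat6a*+/+ and at 152, 179, 200 and 179 CPM in *Kat6a*–/– NSPCs, with a log2 fold-change of 0.84 (SE 0.11, limma FDR 0.000229). *Eda2r* is on the X chromosome, and it was called in all 12 alternative fits, a fit with a term for sex among them, at 0.80 to 0.86. *Phlda3*, whose product competes with the kinase AKT for membrane lipids, was at 66.0, 58.0, 54.4 and 58.6 CPM in *Kat6a*+/+ and at 82.4, 74.6, 93.7 and 93.3 CPM in *Kat6a*–/– NSPCs, with a log2 fold-change of 0.59 (SE 0.11, limma FDR 0.00199). The groups did not overlap for either gene.

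*Bax* encodes the protein that opens the outer mitochondrial membrane in apoptosis. *Bax* was at 154 to 165 CPM in *Kat6a*+/+ and at 191 to 208 CPM in *Kat6a*–/– NSPCs, with a log2 fold-change of 0.31 (SE 0.09, limma FDR 0.0228). *Aen*, which encodes a nuclease that degrades DNA in apoptotic cells, was at 140 to 151 CPM in *Kat6a*+/+ and at 154 to 197 CPM in *Kat6a*–/– NSPCs, with a log2 fold-change of 0.35 (SE 0.11, limma FDR 0.0331). Neither gene overlapped between groups, but the calls were near the threshold. *Bax* lost its call without *Kat6a*+/+ replicate 1 or 3 or *Kat6a*–/– replicate 1 or 3, at limma FDR values up to 0.0618, and with litter as a fixed term at 0.0793. *Aen* lost its call without any single library of these groups except *Kat6a*–/– replicate 4, at FDR values up to 0.103, and in 3 of 12 alternative fits at values up to 0.125. *Bbc3*, the gene for the pro-apoptotic protein PUMA, was the least expressed member, with ranges of 17.9 to 29.6 and 22.2 to 40.7 CPM and a log2 fold-change of 0.28 (95% interval −0.06 to 0.61, limma FDR 0.192).

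Non-overlapping ranges were thus found for 6 members above and 1 below *Kat6a*+/+, against 13.7% and 17.6% of all genes tested. Leaving out single libraries gave between 5 and 8 called members, with 5 without *Kat6a*+/+ replicate 1 or 3 or *Kat6a*–/– replicate 1 or 3 and 8 without *Kat6a*+/– replicate 4, where *Zmat3* was called at 0.28 (limma FDR 0.0260). Other transcripts moved in these libraries as well. The summed level of 22 cell division genes was 5175 to 5697 CPM in *Kat6a*+/+ and stood at 4984, 4556, 4905 and 2831 CPM in *Kat6a*–/– replicates 1 to 4. Of these genes 8 were called lower, against 13.8% of all genes tested, and replicate 4 also had the lowest *Trp53*. The summed level of 8 astrocyte markers was 931 to 1150 CPM in *Kat6a*+/+ and 1559 to 2255 CPM in *Kat6a*–/– NSPCs, with 5 of 7 tested called higher, against 16.2% of all genes. The part of either in the values of the members was not tested. In bulk RNA, fewer cells of a type and less RNA per cell cannot be told apart.

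**Figure D1:**
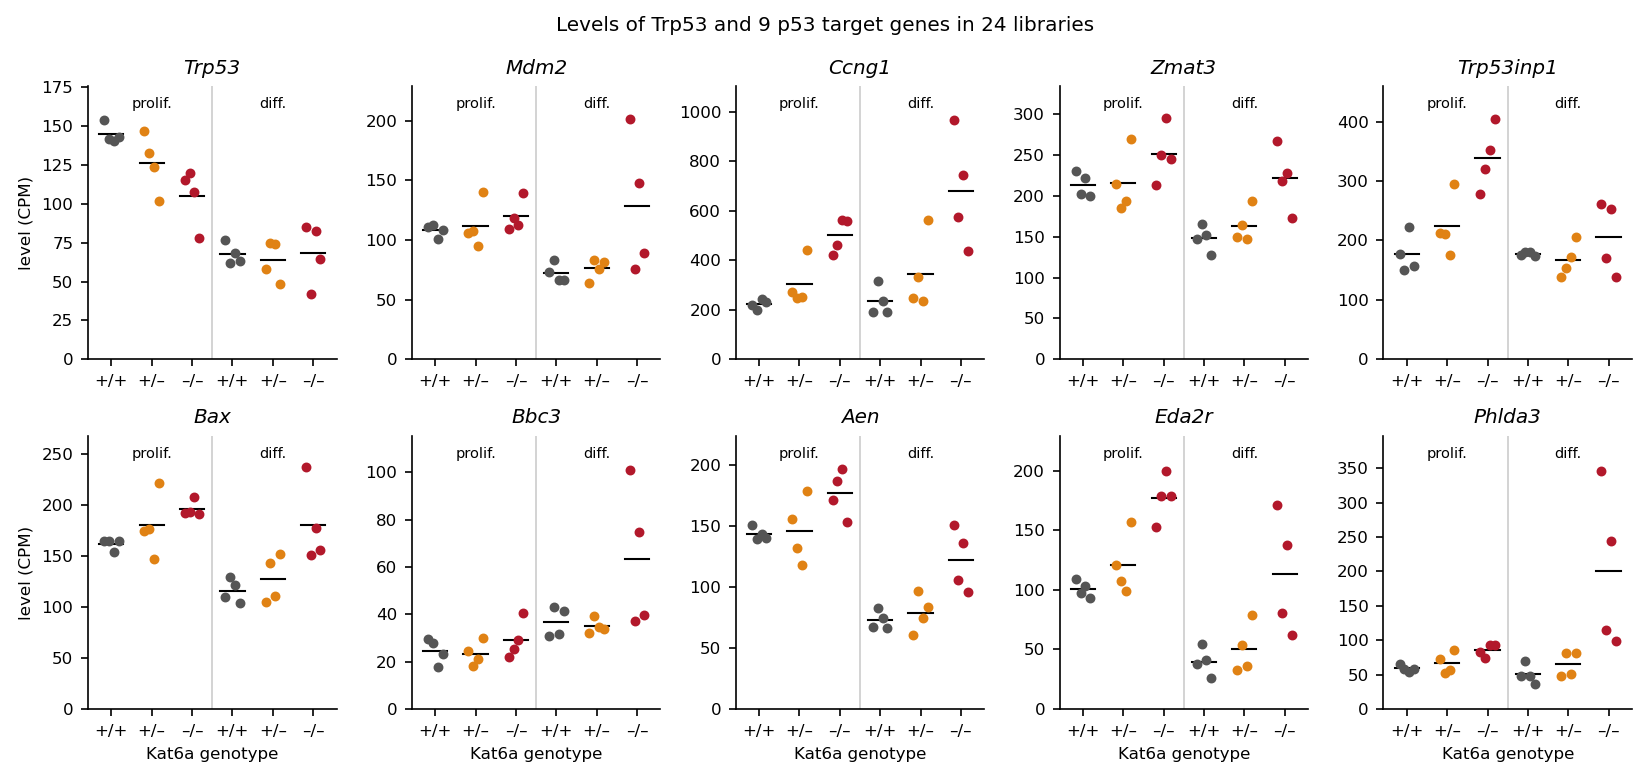
Levels of the 10 members (CPM, linear axes from 0) in each of the 24 libraries; points are libraries, horizontal bars are means of 4, colours are genotypes, and the vertical line divides proliferating from differentiating NSPCs. *Ccng1* in proliferating *Kat6a*–/– libraries lies between 422 and 562 CPM, above all *Kat6a*+/+ libraries, and the differentiating *Kat6a*–/– libraries fall into a high and a low pair for most targets.

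In differentiating NSPCs, *Kat6a*–/– cells were compared with *Kat6a*+/+ in the same way, and 9 of 10 members were called and all 9 were higher, against 54.4% of all genes called, 26.7% higher and 27.7% lower. The median log2 fold-change was 0.96 over the members and −0.02 over all genes. *Phlda3*, *Ccng1* and *Eda2r* rose the most, and *Trp53* itself was not called. In this fit libraries carried unequal weights, and *Kat6a*–/– replicate 3 held 69.0% of the weight given to *Kat6a*–/– and replicate 2 held 4.22%, so that fitted values lean on replicate 3. Without library weights *Mdm2*, *Bbc3* and *Trp53inp1* were not called.

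*Trp53* was at 76.5, 61.9, 68.4 and 63.4 CPM in *Kat6a*+/+ and at 85.4, 42.2, 82.3 and 64.6 CPM in *Kat6a*–/– NSPCs. The *Kat6a*–/– libraries spread to both sides of the *Kat6a*+/+ range. The log2 fold-change of *Trp53* was 0.16 (95% interval −0.11 to 0.44, limma FDR 0.292), and it was −0.02 without library weights. Single libraries decided its direction, since it was −0.26 without *Kat6a*–/– replicate 1 (FDR 0.569), −0.33 without replicate 3 (FDR 0.484) and 0.22 without replicate 2 (FDR 0.0187).

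The same pair of *Kat6a*–/– libraries was high for the targets. *Mdm2* was at 73.5, 83.1, 66.2 and 66.1 CPM in *Kat6a*+/+ and at 201, 75.8, 148 and 89.2 CPM in *Kat6a*–/– NSPCs. Replicates 1 and 3 stood far above the *Kat6a*+/+ range, replicate 2 within it and replicate 4 just above it. The fitted log2 fold-change of *Mdm2* was 1.03 (SE 0.15, limma FDR 0.000160), and it was 0.56 without replicate 1 (FDR 0.146) and 0.58 without replicate 3 (FDR 0.229). *Mdm2* was also not called without library weights (0.73, FDR 0.0595), with limma-voom (0.70, FDR 0.0688) or with litter as a fixed term (1.17, FDR 0.0552).

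*Ccng1* was at 193, 318, 234 and 189 CPM in *Kat6a*+/+ and at 965, 576, 746 and 437 CPM in *Kat6a*–/– NSPCs, without overlap. Its log2 fold-change was 1.76 (SE 0.22, limma FDR 4.47e-05), and it stayed called when any single library was left out, at 1.57 to 1.84. *Phlda3* was at 48.5, 70.1, 47.4 and 36.6 CPM in *Kat6a*+/+ and at 345, 114, 244 and 99.4 CPM in *Kat6a*–/– NSPCs. The lowest *Kat6a*–/– library of *Phlda3* was above the highest of *Kat6a*+/+ and of *Kat6a*+/– (81.6 CPM), and no other member was above both genotypes in this way. The log2 fold-change of *Phlda3* was 2.26 (SE 0.24, limma FDR 1.81e-05), and it was 1.74 without replicate 1 or replicate 3, still called.

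*Eda2r* was at 37.5, 54.6, 40.9 and 26.0 CPM in *Kat6a*+/+ and at 171, 80.8, 138 and 62.3 CPM in *Kat6a*–/– NSPCs, with a log2 fold-change of 1.76 (SE 0.25, limma FDR 0.000127). *Zmat3* was at 147, 165, 152 and 128 CPM and at 268, 218, 227 and 173 CPM, with a log2 fold-change of 0.62 (SE 0.09, limma FDR 0.000167). Neither gene overlapped between the groups.

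The apoptosis genes differed in how far they spread. *Bax* was at 109, 129, 122 and 103 CPM in *Kat6a*+/+ and at 237, 151, 177 and 156 CPM in *Kat6a*–/– NSPCs, with a log2 fold-change of 0.67 (SE 0.12, limma FDR 0.000443). *Aen* was at 66.4 to 83.1 CPM and at 95.6 to 150 CPM, with a log2 fold-change of 0.90 (SE 0.12, limma FDR 9.38e-05). Ranges did not overlap for these 2 genes, but did for *Bbc3*, which was at 30.9, 43.1, 31.7 and 41.3 CPM in *Kat6a*+/+ and at 101, 37.3, 74.8 and 39.8 CPM in *Kat6a*–/– NSPCs. For *Bbc3*, replicates 2 and 4 lay inside the *Kat6a*+/+ range and replicates 1 and 3 lay well above it. The fitted log2 fold-change of *Bbc3* was 1.10 (SE 0.17, limma FDR 0.000247), but it was 0.61 without replicate 1 (FDR 0.166) and 0.61 without replicate 3 (FDR 0.254), and 4 of 12 alternative fits did not call it, with 0.67 without library weights (FDR 0.102). *Trp53inp1* had the smallest called change at 0.41 (SE 0.13, limma FDR 0.0204). It was at 174 to 181 CPM in *Kat6a*+/+ and at 262, 171, 253 and 138 CPM in *Kat6a*–/– NSPCs, and 8 of 12 alternative fits did not call it.

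Non-overlapping ranges were found for 6 members, all above *Kat6a*+/+, against 12.2% of all genes tested. The number of called members depended on the high libraries. It was 3 without *Kat6a*–/– replicate 1 (*Ccng1*, *Phlda3* and *Zmat3*) and 2 without replicate 3 (*Ccng1* and *Phlda3*), but 10 without replicate 2 and 9 without replicate 4, and the fit with litter as a fixed term called 4. All 9 targets kept positive log2 fold-changes in each of these fits, as the plot of fold-changes with libraries left out shows.

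**Figure D2:**
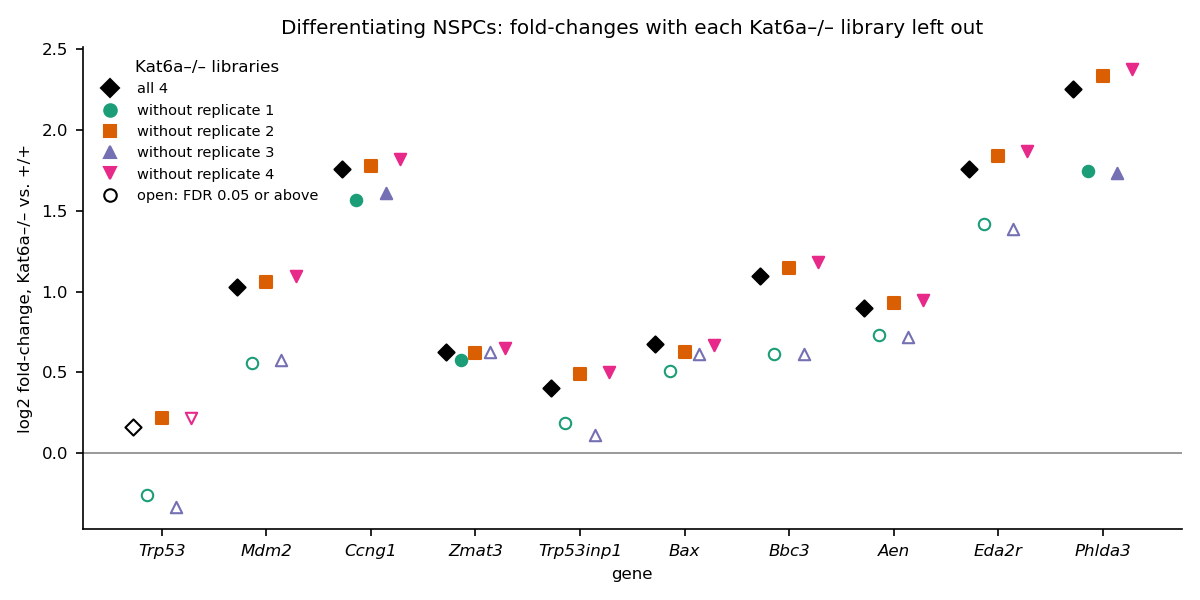
Fitted log2 fold-change of each member in differentiating *Kat6a*–/– vs. *Kat6a*+/+ NSPCs with all libraries and with each *Kat6a*–/– library left out; filled symbols have a limma FDR under 0.05 and open symbols do not. *Ccng1* and *Phlda3* stay filled in all 5 fits, whereas *Mdm2* drops from 1.03 to 0.56 without replicate 1.

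Per library, the median difference of the 9 targets from the *Kat6a*+/+ mean was 1.47, 0.54, 1.04 and 0.40 on the log2 scale in differentiating *Kat6a*–/– replicates 1 to 4. In proliferating *Kat6a*–/– replicates 1 to 4 it was 0.26, 0.34, 0.47 and 0.66. The 4 values of the proliferating libraries lay closer together. Whether the differentiating high pair recurs as a pair could not be seen, since the embryo of its replicate 1 has, by its label, no proliferating library. Replicates 2, 3 and 4 of differentiating *Kat6a*–/– come from the same embryos, by their labels, as replicates 2, 3 and 4 of proliferating *Kat6a*–/–. Among these embryos replicate 3 was highest in differentiating cells (1.04) and replicate 4 in proliferating cells (0.66), so that their order did not recur. In *Kat6a*+/– replicates 1 to 4 the median difference was 0.12, −0.01, −0.13 and 0.45 in proliferating and −0.16, 0.31, −0.0028 and 0.39 in differentiating NSPCs, and replicate 4, a different embryo in each condition, was the highest in both.

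**Figure D3:**
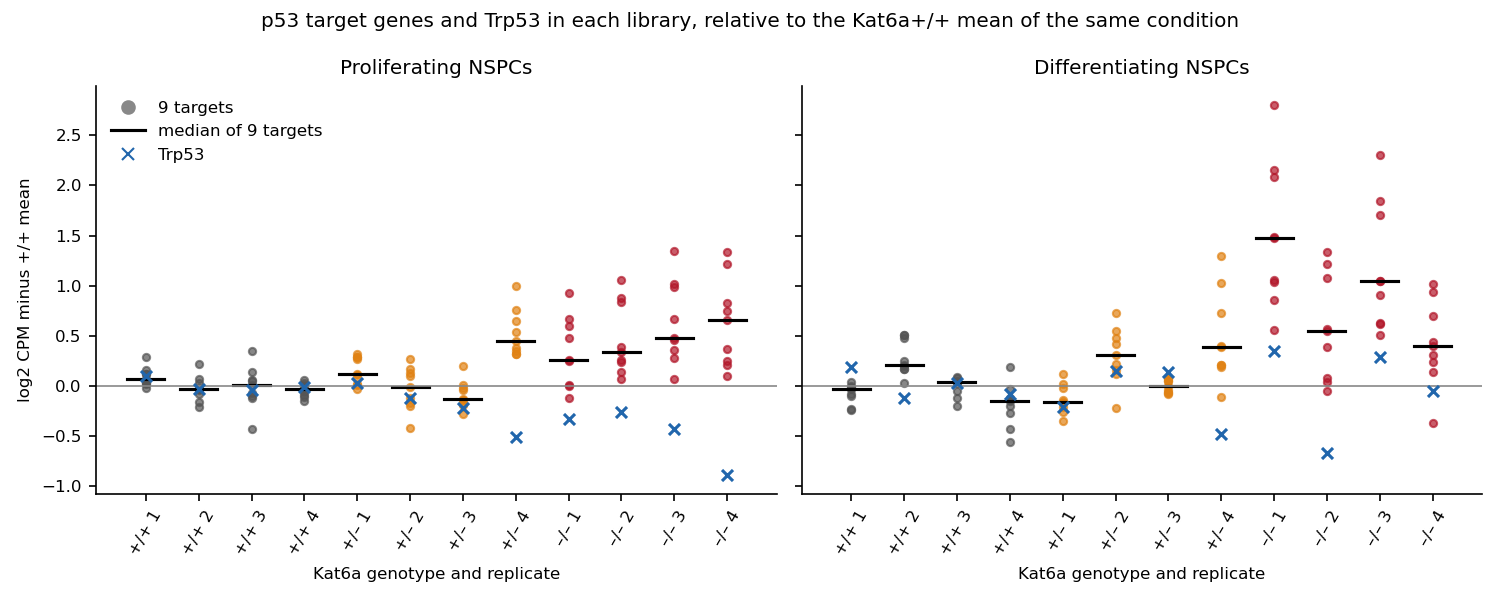
Difference of each library from the *Kat6a*+/+ mean of its condition (log2 CPM) for the 9 targets (dots, black bars at their median) and for *Trp53* (crosses). The medians of differentiating *Kat6a*–/– replicates 1 and 3, at 1.47 and 1.04, are the highest of the 24 libraries, and *Trp53* lies below 0 in all 4 proliferating *Kat6a*–/– libraries.

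Other transcripts differed in these libraries as well. The summed level of 22 cell division genes was 355, 227, 327 and 496 CPM in differentiating *Kat6a*–/– replicates 1 to 4, where the high pair did not stand apart. It was 1166 to 1945 CPM in *Kat6a*+/+ NSPCs, and all 22 genes were called lower in *Kat6a*–/–, against 27.7% of all genes tested. Of 12 mesenchymal and meningeal markers, 6 passed the filter and 5 of these were called higher, against 26.7% of all genes. Their summed level was 126 to 170 CPM in *Kat6a*+/+ NSPCs. It stood at 575, 164, 538 and 388 CPM in *Kat6a*–/– replicates 1 to 4, highest in the libraries with the highest p53 targets. Of these markers *Lum* was at 0 in all *Kat6a*–/– libraries. Of 10 neuron markers 9 passed the filter, of which 5 were called lower and 1 higher, against 27.7% and 26.7% of all genes. The summed level of the neuron markers overlapped, at 554 to 749 CPM in *Kat6a*+/+ and 473 to 786 CPM in *Kat6a*–/– NSPCs. Among 8 astrocyte markers 1 was called higher and 2 lower, not above the shares of all genes. Their summed level was 1810 to 2533 CPM in *Kat6a*+/+ NSPCs. It was 7671 CPM in *Kat6a*–/– replicate 2 and 1550 to 3528 CPM in the others of that group. The part of cell composition in the p53 target values was not tested. All 10 neural stem and progenitor markers listed were expressed in both conditions. In differentiating *Kat6a*–/– NSPCs 3 of them were called higher and 5 lower, against 26.7% and 27.7% of all genes. The count of higher genes was thus near the background. In proliferating *Kat6a*–/– NSPCs 3 were called higher and 3 lower, against 16.2% and 13.8% of all genes. Of 6 oligodendrocyte lineage markers tested 1 was called higher and 4 lower in differentiating *Kat6a*–/– NSPCs, against the same 26.7% and 27.7%.

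*Kat6a*+/– NSPCs were compared with *Kat6a*+/+ to ask whether loss of 1 allele is enough to move the members. In proliferating cells no member was called by limma, edgeR or DESeq2, against 0% of all genes in the limma fit, and 2 members had an unadjusted limma p under 0.05 against 7.43% of all genes. These were *Ccng1*, with a log2 fold-change of 0.40 (95% interval 0.09 to 0.71, limma FDR 0.534), and *Eda2r*, with 0.25 (95% interval 0.01 to 0.50, limma FDR 0.663). *Ccng1* was at 270, 248, 254 and 441 CPM in *Kat6a*+/– NSPCs, all 4 above the *Kat6a*+/+ range, and it was the only member whose ranges did not overlap (1.89% of all genes were above in this way). Replicate 4 of *Kat6a*+/– was the highest library of its group in all 9 targets and had the lowest *Trp53*. Without it *Ccng1* was 0.24 and *Eda2r* 0.14 on the log2 scale.

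That library and *Kat6a*–/– replicate 4 are the only proliferating libraries of their litter. Without this litter the proliferating *Kat6a*–/– vs. *Kat6a*+/– comparison called 7 members in place of 4, and *Kat6a*–/– vs. *Kat6a*+/+ called 8. The 4 members called between *Kat6a*–/– and *Kat6a*+/– with all libraries, against 14.8% of all genes called and 8.47% called higher, were *Ccng1* at 0.75 (SE 0.14, limma FDR 0.00506), *Trp53inp1* at 0.63, *Eda2r* at 0.59 and *Phlda3* at 0.41, all higher in *Kat6a*–/–. *Phlda3* lost this call with edgeR (FDR 0.116), DESeq2 (FDR 0.0814) and limma without litter block (FDR 0.0919), and without *Kat6a*–/– replicate 1 or 4 or *Kat6a*+/– replicate 2 or 3, at limma FDR values up to 0.0691.

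In differentiating cells no member was called between *Kat6a*+/– and *Kat6a*+/+ by limma, edgeR or DESeq2, against 0% of all genes in the limma fit, and no member had an unadjusted limma p under 0.05, against 14.4% of all genes. The 95% intervals were wide enough to hold sizeable differences, from −0.30 to 0.82 for *Phlda3* and −0.06 to 0.95 for *Ccng1*. The median log2 fold-change of the members was 0.02. *Ccng1* was at 248, 334, 236 and 562 CPM and *Phlda3* at 48.4, 81.6, 51.7 and 81.3 CPM in differentiating *Kat6a*+/– NSPCs, so that both ranges overlapped those of *Kat6a*+/+. Between *Kat6a*–/– and *Kat6a*+/– libraries, 9 members were called higher, against 37.5% of all genes called and 19.1% called higher, and *Phlda3* alone did not overlap (6.74% of all genes were above in this way). The limma count was 0 without *Kat6a*–/– replicate 1 and 0 without replicate 3, 2 were called by edgeR, and all 10 members had an unadjusted limma p under 0.05 with all libraries, against 47.9% of all genes. The comparisons of either mutant with *Kat6a*+/+ share the same *Kat6a*+/+ libraries.

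**Figure D4:**
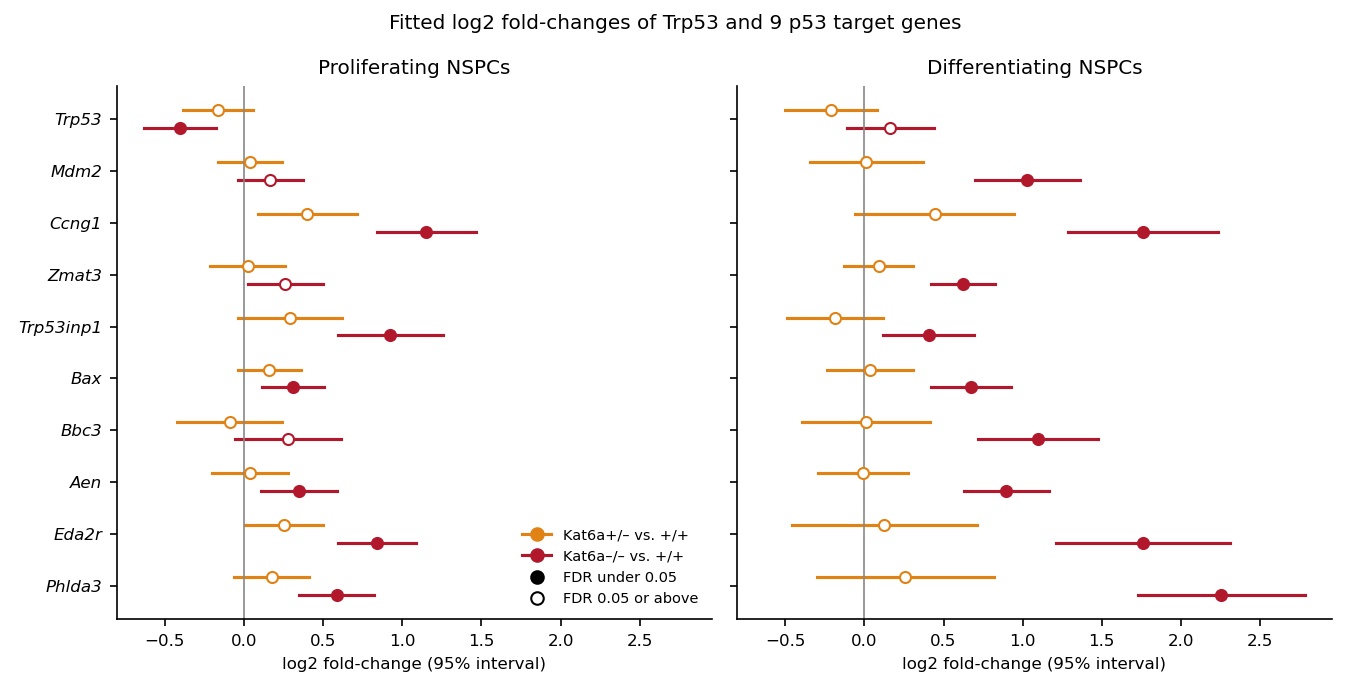
Fitted log2 fold-changes with 95% intervals of the 10 members in *Kat6a*+/– and *Kat6a*–/– vs. *Kat6a*+/+ NSPCs, in proliferating (left) and differentiating (right) cells; filled symbols have a limma FDR under 0.05. No *Kat6a*+/– symbol is filled, and *Trp53* is the single filled symbol below 0.

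Between conditions in *Kat6a*+/+ NSPCs, 6 members were called and all 6 were lower in differentiating cells, against 73% of all genes called and 36.3% called lower. The median log2 difference was −0.51 over the members and 0.02 over all genes. *Eda2r* fell by 1.40 on the log2 scale, *Trp53* by 1.10, *Aen* by 0.98, *Mdm2* by 0.59, *Zmat3* by 0.53 and *Bax* by 0.49 (largest limma FDR 0.0143). *Ccng1* at 0.04, *Trp53inp1* at 0.03, *Phlda3* at −0.28 and *Bbc3* at 0.51 were not called. *Bbc3*, at 24.7 ± 5.29 CPM in proliferating and 36.8 ± 6.37 CPM in differentiating *Kat6a*+/+ NSPCs (mean ± SD, n = 4), was the member with the highest estimate.

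Whether the *Kat6a*–/– effect differed between conditions was tested as an interaction. *Phlda3* was the single member called, with a difference of 1.32 between the log2 fold-changes (SE 0.43, limma FDR 0.0453), against 13.9% of all genes called and 6.37% called higher. *Trp53inp1* had the only negative estimate, −0.78 (SE 0.27, limma FDR 0.0538). Across 13 alternative fits *Phlda3* was called in 8, with a limma FDR of up to 0.0750, and with single libraries left out its estimate was 0.94 to 1.60 with an FDR of up to 0.109. *Phlda3* lost its call when any single proliferating library was left out, and without several of the differentiating libraries. *Trp53inp1* was called in several of these fits, for example at −0.95 without proliferating *Kat6a*+/+ replicate 3 (limma FDR 0.0210). The number of called members was between 0 and 4 with single libraries left out. It was 0 without *Kat6a*+/+ replicate 1 of either condition, and also without several other libraries. *Mdm2*, called in differentiating and not in proliferating cells, had an interaction of 0.58 (95% interval −0.02 to 1.19, limma FDR 0.185). With library quality weights, where 8 members were called, the *Mdm2* interaction was 0.88 (FDR 0.00125). Without differentiating *Kat6a*–/– replicate 2 it was 0.75 (limma FDR 0.0367), so that whether its effects differed depended on the weights and on that library. For *Kat6a*+/– no member was called by limma, edgeR or DESeq2, against 0% of all genes in the limma fit. None had an unadjusted limma p under 0.05, against 3.03% of all genes.

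Further known p53 targets, 32 genes in 3 lists, were described beside the members. In proliferating *Kat6a*–/– NSPCs 10 were called higher and 2 lower of 32, against 16.2% and 13.8% of all genes, with a median log2 fold-change of 0.29. In differentiating *Kat6a*–/– NSPCs 21 were called higher and 3 lower of 31 tested, against 26.7% and 27.7% of all genes, with a median of 0.81. In *Kat6a*+/– NSPCs the medians were 0.08 and 0.07.

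The cell death list was the highest in both conditions, at medians of 0.51 and 1.03. *Tnfrsf10b*, a death receptor gene, was at 14.4, 13.1, 14.8 and 13.4 CPM in proliferating *Kat6a*+/+ and at 25.7, 26.3, 34.5 and 35.5 CPM in *Kat6a*–/– NSPCs, with log2 fold-changes of 1.11 (SE 0.17, limma FDR 0.000622) in proliferating and 2.95 (SE 0.35, limma FDR 3.14e-05) in differentiating cells. *Pmaip1*, which encodes the BCL2 antagonist NOXA, rose by 1.08 on the log2 scale in proliferating cells (SE 0.14, limma FDR 0.000201). *Fas*, another death receptor gene, rose by 1.12 there (SE 0.36, limma FDR 0.0330), from 1.92 to 3.30 CPM in *Kat6a*+/+ to 3.94 to 10.8 CPM. The call of *Fas* was lost in 3 of 11 alternative fits, with a log2 fold-change of 0.51 (FDR 0.312) with litter as a fixed term, and without *Kat6a*+/+ replicate 1, 2 or 3 or *Kat6a*–/– replicate 1 or 4, at FDR values up to 0.105. *Perp*, an apoptosis gene of the plasma membrane, rose by 2.76 in differentiating cells (SE 0.62, limma FDR 0.00260), but its libraries had 27.4, 0.690, 16.03 and 3.94 CPM, with replicate 2 below the *Kat6a*+/+ range of 0.713 to 2.70 CPM. *Perp* was not called in 5 of 12 alternative fits, at 1.59 with limma-voom (FDR 0.367) and 1.74 without library weights (FDR 0.233), nor without replicate 1 at 0.78 (FDR 0.741) or replicate 3 at 0.56 (FDR 0.846). The differentiating call of *Tnfrsf10b* was also lost without these libraries, at 2.32 (FDR 0.0507) and 2.27 (FDR 0.0804).

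*Cdkn1a*, which encodes the cyclin-dependent kinase inhibitor p21 and is the best known arrest gene among p53 targets, was not called in proliferating cells. It was at 315, 276, 214 and 261 CPM in *Kat6a*+/+ and at 265, 259, 336 and 439 CPM in *Kat6a*–/– NSPCs, with overlap and a log2 fold-change of 0.33 (95% interval −0.03 to 0.68, limma FDR 0.151), although the fit with litter as a fixed term called it at 0.29 (FDR 0.0353). In differentiating cells it was at 93.6, 191, 104 and 79.1 CPM in *Kat6a*+/+ and at 953, 233, 596 and 239 CPM in *Kat6a*–/– NSPCs. *Cdkn1a* was higher there by 2.48 in log2 units (SE 0.33, limma FDR 8.02e-05), with the same high pair of libraries, and its FDR rose to 0.0747 without replicate 1 and to 0.114 without replicate 3. Of the arrest list, 2 of 10 genes were called higher in proliferating and 7 of 10 in differentiating cells, against 16.2% and 26.7% of all genes.

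Targets in DNA repair and metabolism were mixed, with 2 of 12 called higher and 2 lower in proliferating cells and 7 higher and 3 lower of 11 in differentiating cells. Of all genes, 16.2% were called higher and 13.8% lower in proliferating and 26.7% higher and 27.7% lower in differentiating cells, so that the proliferating counts of this list and its differentiating count of lower genes were near the background. *Gdf15*, a stress-induced cytokine gene, fell by 0.80 on the log2 scale in proliferating *Kat6a*–/– NSPCs (SE 0.28, limma FDR 0.0428), from 6.79 to 15.7 CPM to 4.25 to 7.34 CPM, with overlapping ranges. The call of *Gdf15* was lost in 3 of 12 alternative fits, at FDR values up to 0.0800, and in 8 of 12 fits that each left out 1 library, at values up to 0.124 (without *Kat6a*+/+ replicate 1).

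Of 18 genes that act upstream of p53, the largest difference was in *Cdkn2a*, which encodes the cell cycle inhibitor INK4A and, in another reading frame, ARF. *Cdkn2a* was at 13.9, 12.1, 8.35 and 13.7 CPM in proliferating *Kat6a*+/+ and at 45.4, 57.2, 54.5 and 49.96 CPM in *Kat6a*–/– NSPCs, with a log2 fold-change of 2.23 (SE 0.19, limma FDR 1.30e-05). In differentiating cells it was at 9.08, 21.5, 7.39 and 19.4 CPM in *Kat6a*+/+ and at 229, 177, 179 and 99.5 CPM in *Kat6a*–/– NSPCs, with a log2 fold-change of 4.10 (SE 0.30, limma FDR 2.49e-06). The groups were far apart in both conditions, and all 4 *Kat6a*–/– libraries were also above all *Kat6a*+/– libraries. *Cdkn2a* stayed called in every alternative fit and with any library left out. Gene-level counts do not separate INK4A from ARF transcripts.

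The other regulators moved less. *Chek1*, a checkpoint kinase gene expressed mainly in dividing cells, fell by 2.34 on the log2 scale in differentiating *Kat6a*–/– NSPCs (SE 0.25, limma FDR 1.59e-05), and 5 of 18 regulators were called lower in proliferating and 11 of 18 in differentiating cells, against 13.8% and 27.7% of all genes. *Mdm4*, an inhibitor of p53 related to *Mdm2*, had a log2 fold-change of 0.10 (95% interval −0.06 to 0.27, limma FDR 0.319) in proliferating and −0.44 (SE 0.12, limma FDR 0.00701) in differentiating cells, where 5 of 12 alternatives did not call it. The p53 relatives *Trp63* and *Trp73* were under 1 CPM in all proliferating libraries. *Trp63* was at 0.503 to 1.27 CPM in differentiating *Kat6a*+/+ and 1.36 to 2.05 CPM in *Kat6a*–/– NSPCs, with a log2 fold-change of 0.94 (SE 0.32, limma FDR 0.0233).

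Among 12 genes of the BCL2 family outside the lists above, *Bid*, which links death receptors to the mitochondrion, rose by 0.47 on the log2 scale in proliferating (SE 0.10, limma FDR 0.00334) and by 1.23 in differentiating *Kat6a*–/– NSPCs (SE 0.16, limma FDR 5.85e-05). The differentiating call of *Bid* was lost without *Kat6a*–/– replicate 3, at 0.84 (FDR 0.0946). *Bid* was the single gene of 10 tested that was called in proliferating cells, against 30% of all genes called, so that this count was below the background. In differentiating cells 5 of 11 were called higher and 3 lower, against 26.7% and 27.7% of all genes, among the latter the pro-apoptotic *Bmf* at −0.77 (SE 0.13, limma FDR 0.000402) and *Hrk* at −2.09 (SE 0.39, limma FDR 0.000787). *Hrk* was not called in 5 of 11 alternative fits, among them edgeR at −0.98 (FDR 0.269) and DESeq2 at −0.98 (FDR 0.245), nor without *Kat6a*–/– replicate 1 at −1.02 (FDR 0.346) or replicate 3 at −1.02 (FDR 0.441). *Hrk* was at 0.138 to 2.07 CPM in *Kat6a*–/– and 1.59 to 2.35 CPM in *Kat6a*+/+ NSPCs.

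**Figure D5:**
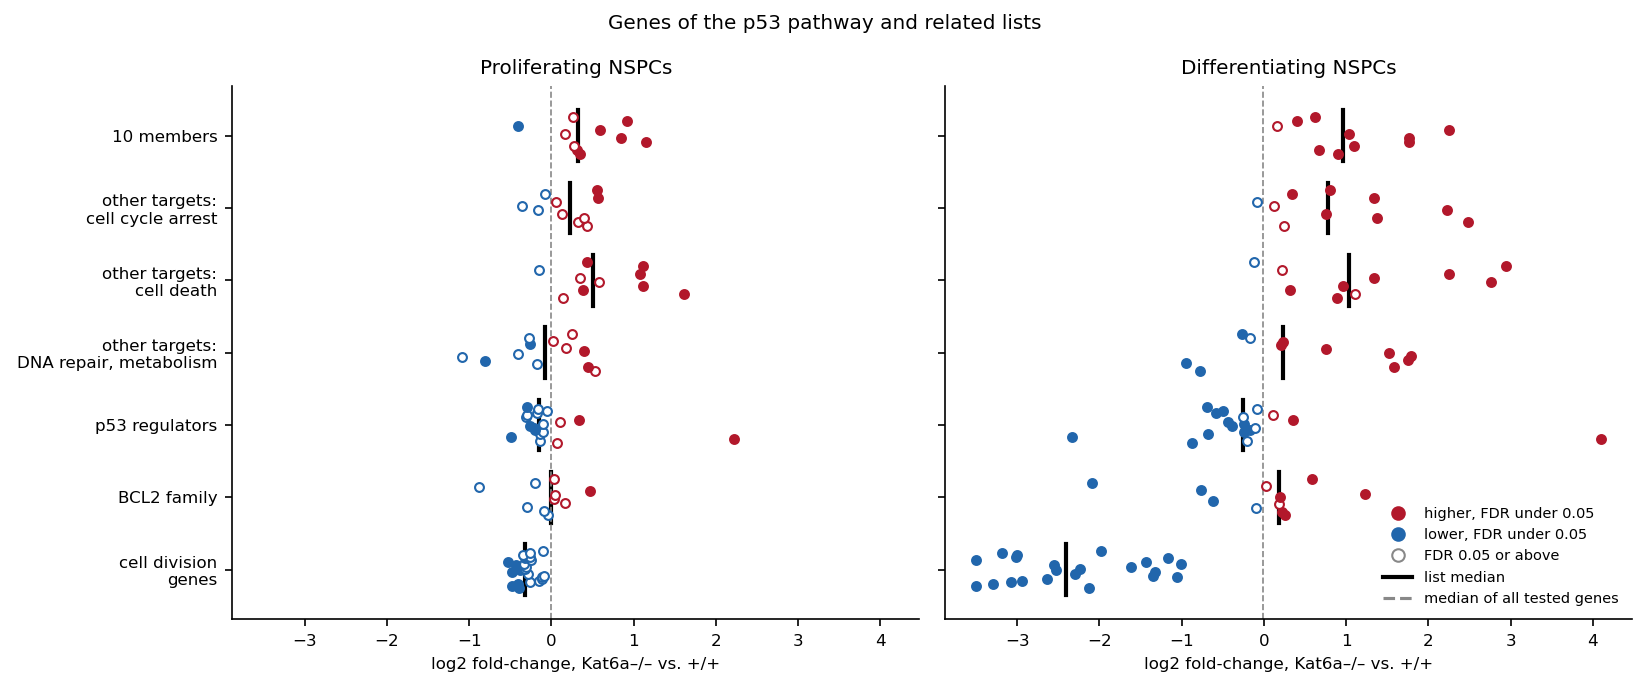
Fitted log2 fold-changes in *Kat6a*–/– vs. *Kat6a*+/+ NSPCs for the members, the 3 lists of other p53 targets, p53 regulators, the BCL2 family and cell division genes; each dot is a gene, filled if its limma FDR is under 0.05, black bars are list medians and the dashed line is the median of all genes tested. The cell death list has medians of 0.51 and 1.03, *Cdkn2a* is the regulator at 2.23 and 4.10, and all 22 cell division genes are lower in differentiating cells.

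Across the 24 libraries, with the mean of each condition removed, the genes whose log2 CPM was most like that of *Trp53* included *Fmnl3* (Pearson's r 0.93) and *Eif5a* (r 0.92). Those most like *Mdm2* were *Slc27a3* (r 0.95), *Plxna1* (r 0.94) and *Susd6* (r 0.93). These values describe 13585 genes over libraries that share genotype, litter and depth. *Trp53* itself had an r of 0.20 with *Mdm2* and of −0.35 with *Ccng1*.

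Several members share exonic sequence with another gene, and the strand setting of the counting was not stated. *Trp53* shares 263 bases with *Wrap53* and *Ccng1* 114 bases with *Nudcd2* on the opposite strand, *Aen* shares 1214 bases and *Mdm2* 348 bases with non-coding RNAs on the opposite strand, *Cdkn1a* shares 504 bases with *Dino* on the opposite strand, and *Bax* shares 192 bases with a predicted gene on the same strand. *Wrap53* itself fell by 0.30 on the log2 scale in proliferating *Kat6a*–/– NSPCs (SE 0.10, limma FDR 0.0436), and its part in the *Trp53* value was not tested.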

How the data were processed

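RNA-seq was made from 24 libraries, 4 per genotype and condition. The deposited counts are whole numbers of reads per gene that the authors obtained by aligning reads to mm39 with Rsubread and counting with featureCounts against strict RefSeq genes; reads were demultiplexed with bcl2fastq, and versions and the strand setting of the counting are not given in the sources used here. From these counts, protein-coding genes that passed filterByExpr (minimum count 10) were kept, with *Xist* and genes unique to the Y chromosome removed, and scaled by TMM.

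Conditions were fitted apart, as in the study. The differentiating *Kat6a*–/– vs. *Kat6a*+/+ fit called 7258 genes, more than the study reports at the same FDR, and the reason was not tested. The proliferating fit called 3686 genes, slightly fewer than the study reports. Proliferating libraries were fitted with limma-voom, litter as a random block and robust moderation, and differentiating libraries with limma-trend on log2 CPM (prior count 2) and library quality weights. All 24 libraries were fitted with limma-voom and litter block for comparisons between conditions. FDR is Benjamini-Hochberg adjusted over all tested genes, intervals are 95%, and levels per length use the deposited gene lengths. Refits without a library kept the within-litter correlation of the full fit. Alternatives were edgeR, DESeq2, other scalings, filters, blocks, weights, a sex term and leaving out libraries; leaving out 1 litter was chosen after seeing the data. Fits were tested on simulated data. Tools were R 4.3.3, limma 3.58.1, edgeR 4.0.16, DESeq2 1.42.0, statmod 1.5.0 and Python 3.11.15. Replicates are embryos, some of them littermates, and no 2 replicates agreed within sampling noise (lowest chi-square per degree of freedom 5.81).

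Named were all members, *Cdkn1a*, *Mdm4* and *Cdkn2a*, and per condition the 5 listed targets or regulators and 3 BCL2 family genes with the largest called change in *Kat6a*–/– vs. *Kat6a*+/+ NSPCs at an average log2 CPM above 0. For *Trp53* and *Mdm2* the 3 most correlated genes were to be named, of which 1 is not reported here. *Kat6a*, *Wrap53*, *Trp63* and *Trp73* were named outside this rule, after their values were seen. The members and lists were chosen with earlier results of these data known. Positions and sequences are from the GRCm39 (mm39) genome and its GENCODE annotation.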

Additional observations from a re-analysis of the deposited data

Results flagged for a closer look

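In groups of 4 libraries, 3 of 60 tests of the members' levels placed a library far from the others by Dixon's criterion, where chance gives about 1 in 20. *Ccng1* was at 441 CPM in proliferating *Kat6a*+/– replicate 4, with the next library at 270 CPM. *Bax* was at 154 CPM in proliferating *Kat6a*+/+ replicate 3, below the next at 164 CPM, and at 208 CPM in proliferating *Kat6a*–/– replicate 3, above the next at 193 CPM.

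The estimated effect of the *Kat6a*–/– genotype on *Phlda3* differed between conditions by 1.32 on the log2 scale (limma FDR 0.0453). This call was lost in several alternative fits, among them litter as a fixed term (FDR 0.0750) and a sex term (FDR 0.0528). It was also lost when any single proliferating library was left out. Effects of the condition and of the RNA kit cannot be told apart here.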

How the results depend on the processing

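No called log2 fold-change of a member or of *Cdkn1a*, *Mdm4* or *Cdkn2a* changed direction in any alternative fit, and all 63 changes of direction were in values that were not called. The replicate numbers did not pair the samples (3 of 12 same-numbered pairs in proliferating and 1 of 12 in differentiating NSPCs correlated above 0.1), and with the number as a replicate block 6, 0 and 4 members were called in proliferating *Kat6a*–/– vs. *Kat6a*+/+, *Kat6a*+/– vs. *Kat6a*+/+ and *Kat6a*–/– vs. *Kat6a*+/–, 9, 0 and 9 in the same differentiating comparisons, 6 between conditions and 0 in either interaction. In the latter, *Kat6a*–/– by condition, DESeq2 called 2, no filter, litter as a fixed term or a sex term 0, and library quality weights 8. Differentiating *Kat6a*–/– vs. *Kat6a*+/– gave 2 with edgeR, a sex term, no quality weights or limma-voom and 1 with litter fixed. Differentiating *Kat6a*–/– vs. *Kat6a*+/+ gave 4 with litter fixed, and proliferating *Kat6a*–/– vs. *Kat6a*+/– gave 7 without the litter of replicate 4. The causes were not tested. With single libraries left out these counts ranged from 0 to 4, 0 to 10, 2 to 10 and 3 to 7.

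Uncalled values changed sign as follows. In proliferating *Kat6a*+/– vs. *Kat6a*+/+, *Mdm2* was −0.0055 and *Zmat3* −0.0051 with litter fixed, *Mdm2* −0.014, *Zmat3* −0.035 and *Aen* −0.00056 with quality weights, and *Mdm2* −0.056, *Zmat3* −0.083 and *Aen* −0.069 without that litter. In differentiating *Kat6a*+/– vs. *Kat6a*+/+, *Bbc3* and *Aen* were −0.076 and 0.11 with edgeR, −0.067 and 0.12 with DESeq2, −0.0086 and 0.0084 without a filter, −0.027 and 0.11 with litter fixed, −0.063 and 0.096 without weights and −0.071 and 0.093 with limma-voom. There, *Mdm2* and *Bbc3* were −0.013 and −0.020 without TMM and −0.028 and −0.047 with the replicate block, and *Trp53* and *Aen* 0.045 and 0.30 with a sex term. *Trp53* in differentiating *Kat6a*–/– vs. *Kat6a*+/+ was −0.024 without weights and −0.052 with limma-voom. Between conditions, *Ccng1* and *Trp53inp1* were −0.17 and −0.058 with litter fixed, and *Ccng1* −0.022 with weights.

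With single libraries left out, proliferating *Kat6a*+/– vs. *Kat6a*+/+ gave −0.048 to 0.095 for *Mdm2*, −0.20 to 0.011 for *Bbc3*, −0.082 to 0.088 for *Zmat3* and −0.075 to 0.13 for *Aen*. Differentiating *Kat6a*+/– vs. *Kat6a*+/+ gave −0.065 to 0.18 for *Mdm2*, −0.046 to 0.16 for *Bax*, −0.11 to 0.10 for *Bbc3*, −0.013 to 0.33 for *Eda2r* and −0.14 to 0.23 for *Aen*. *Trp53* ranged from −0.33 to 0.26 in differentiating *Kat6a*–/– vs. *Kat6a*+/+ and from −0.15 to 0.45 against *Kat6a*+/–, and between conditions *Ccng1* ranged from −0.090 to 0.16 and *Trp53inp1* from −0.020 to 0.18. Library totals of 7826660 counts or more put every member well above the counting limit. Each group had 4 replicates, and the differentiating *Kat6a*–/– libraries were widely spread for most targets. What set the precision of the estimates was not tested.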
